A study of Mus musculus with 2 samples.

Results

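Hnf4a binding was described beside the genes for protein entry into the endoplasmic reticulum (ER) and for the coats of the vesicles that move cargo between the ER and the Golgi. Protein-coding genes of RefSeq GRCm38.p6 were taken whose symbols start with Sec, Tmed, Srp or Ssr and a digit, or are Sar1a, Sar1b or a Cop gene of the letters a, b, e, g or z. The rule gave 62 of 21883 genes. By textbook role, 20 act in translocation, 14 in the COPII coat, 8 in the COPI coat, 11 are Tmed genes of the p24 family and 3 are Sec22 genes. The other 6, Sec1 and 5 Sec14-like genes, were matched by symbol alone: Sec1 is a fucosyltransferase gene and the Sec14-like genes encode lipid-binding proteins, so the name of the group does not describe them. The symbols use no measured value, but this gene group was chosen by the numbers of Hnf4a summits already known to lie beside its genes, so all counts below are a description and no test was run.

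Hnf4a is a nuclear receptor of hepatocytes, cells that secrete most plasma proteins. Secreted proteins are met on the ribosome by the signal recognition particle, threaded through the Sec61 channel with the help of Sec62, Sec63 and the translocon-associated protein (TRAP) complex, and trimmed by signal peptidase. They leave the ER in vesicles that the GTPase Sar1 starts, with an inner coat of Sec23 and Sec24 and an outer coat of Sec13 and Sec31, while the COPI coat carries membrane and escaped ER proteins back. The p24 proteins are cargo receptors that travel in both kinds of vesicle.

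Binding was mapped by ChIL-seq. In this assay Tn5 transposase, held at the bound protein by an antibody probe, inserts T7 promoters nearby, and the DNA beside them is transcribed in place. There is 1 group of 2 replicates, both from iHepCs: wild-type C57BL/6J mouse embryonic fibroblasts given Foxa2 and Hnf4a by retrovirus. The medium held insulin, nicotinamide, β-mercaptoethanol, dexamethasone (100 nM) and the growth factors HGF and EGF (20 ng/ml of either). Hnf4a was itself one of the introduced factors, so these sites are those of cells that carry the gene on a virus. The series text speaks of biological replicates, while the peak names give both libraries the same lot number, so the spread between them may be partly technical. Replicate 1 has 21283 summits, or peak tops of 1 bp in build mm10, and replicate 2 has 24097. A shared summit is a replicate 1 summit with a replicate 2 summit within 100 bp, and 9193 were shared. The score of a summit is the authors' −log10 q, with medians of 7.32 and 6.67. Read depth is unknown, no control library was analysed here, and expression was not measured in these files, so the cell type could not be checked against marker genes.

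Sequences are given for the promoters that carried a shared summit nearest to the start site, shown because all translocation genes with a nearby shared summit had it at a gene end. RefSeq promoter windows of GRCm38.p6, the assembly of mm10, were matched for 53 of the 62 genes, and 8 of these 53 held a shared summit inside the window, which runs from 250 bases before the start site to 50 after it. For the 6 nearest, the 250 bases before the start site are printed 5′ to 3′ on the gene's strand. Capitals mark the stretch from the replicate 1 summit to the replicate 2 summit. They lie at chr3:65392554-65392803 (minus strand) for Ssr3, chr10:42761246-42761495 (plus) for Sec63, chr12:59012018-59012267 (minus) for Sec23a, chr2:144555979-144556228 (plus) for Sec23b, chr15:103272638-103272887 (plus) for Copz1 and chr5:108132621-108132870 (minus) for Tmed5.
Ssr3: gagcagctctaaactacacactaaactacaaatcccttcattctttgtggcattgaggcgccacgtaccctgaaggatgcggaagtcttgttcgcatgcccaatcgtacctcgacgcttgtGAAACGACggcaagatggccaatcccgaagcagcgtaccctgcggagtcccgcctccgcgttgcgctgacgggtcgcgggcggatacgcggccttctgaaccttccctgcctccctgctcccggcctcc
Sec63: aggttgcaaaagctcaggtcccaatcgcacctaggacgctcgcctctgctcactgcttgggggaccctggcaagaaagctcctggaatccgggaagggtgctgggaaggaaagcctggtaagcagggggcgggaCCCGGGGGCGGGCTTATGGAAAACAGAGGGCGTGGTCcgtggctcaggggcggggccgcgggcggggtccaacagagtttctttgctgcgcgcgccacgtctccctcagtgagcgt
Sec23a: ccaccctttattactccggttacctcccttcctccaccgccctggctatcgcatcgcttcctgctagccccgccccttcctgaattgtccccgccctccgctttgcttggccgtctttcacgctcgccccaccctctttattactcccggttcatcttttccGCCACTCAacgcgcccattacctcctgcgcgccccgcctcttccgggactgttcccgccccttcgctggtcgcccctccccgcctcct
Sec23b: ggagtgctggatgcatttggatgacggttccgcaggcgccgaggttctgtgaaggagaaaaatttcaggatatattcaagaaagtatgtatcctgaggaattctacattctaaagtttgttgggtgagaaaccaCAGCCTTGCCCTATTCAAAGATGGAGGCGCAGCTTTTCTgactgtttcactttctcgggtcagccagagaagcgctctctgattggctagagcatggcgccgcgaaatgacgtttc
Copz1: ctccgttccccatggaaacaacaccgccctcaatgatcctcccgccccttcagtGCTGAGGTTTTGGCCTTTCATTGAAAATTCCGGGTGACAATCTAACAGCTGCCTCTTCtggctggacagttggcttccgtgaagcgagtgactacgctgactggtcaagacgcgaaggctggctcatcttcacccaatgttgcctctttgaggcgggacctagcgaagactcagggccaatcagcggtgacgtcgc
Tmed5: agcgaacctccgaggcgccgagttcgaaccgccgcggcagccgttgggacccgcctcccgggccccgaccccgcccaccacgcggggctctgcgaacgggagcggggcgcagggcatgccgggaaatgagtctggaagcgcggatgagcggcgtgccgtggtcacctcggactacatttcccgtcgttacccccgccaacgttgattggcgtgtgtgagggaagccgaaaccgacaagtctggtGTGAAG

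Positions are counted from the start site as base 0, with negative numbers before it. In Ssr3 the summits lay at −129 in replicate 1 and −122 in replicate 2, 7 bases apart. Copies of the letters CCAAT began at −151 and −111, on either side of that stretch. Both summits of Sec23a lay in a stretch of 8 bases, at −88 and −81. The Sec63 summits stood at −116 and −80, those of Sec23b at −78 and −116, and those of Copz1 at −139 and −196. Tmed5 had its replicate 1 summit at −6 and its replicate 2 summit 3 bases past the start site, beyond the printed stretch. The remaining 2 windows were those of Sec61b (−222 and −264) and Sec16a (−242 and −279), whose replicate 2 summits fell just outside them.

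Inside the gene or within 10 kb of either end, 24 of the 62 genes had a shared summit (38.7%), as did 26% of all protein-coding genes. In replicate 1 alone 36 of the 62 had a summit there (58.1%, against 46.4% of all genes), and in replicate 2 alone 39 (62.9%, against 49.2%), or 60.5% ± 3.42 (SD, n = 2). Within 1 kb of a gene end, on either side of it, 17 of the 62 had a shared summit (27.4%), beside 8.73% of all genes. For single replicates these were 25 and 26 of 62 (40.3% and 41.9%), beside 18.2% and 18% of all genes. Gene interiors held a shared summit in 7 of 62 cases (11.3%), beside 13.7% of all genes. For single replicates they did so in 16 and 15 (25.8% and 24.2%), beside 26.3% and 28.4%. The window of 50 kb gave 37 of 62 for shared summits (59.7%), beside 47.9% of all genes, and 48 and 55 for single replicates (77.4% and 88.7%), beside 70.2% and 73.4%. Among the 24 genes with a shared summit within 10 kb, 17 had it within 1 kb of an end (70.8%), 5 had one deeper inside the gene and none within 1 kb of an end (20.8%), and 2 had shared summits only at 1 to 10 kb outside (8.33%). For all 5696 such genes these shares were 33.5%, 39.3% and 27.2%. Since the group was chosen with such counts in view, nothing is read from these differences.

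**Figure D1:**
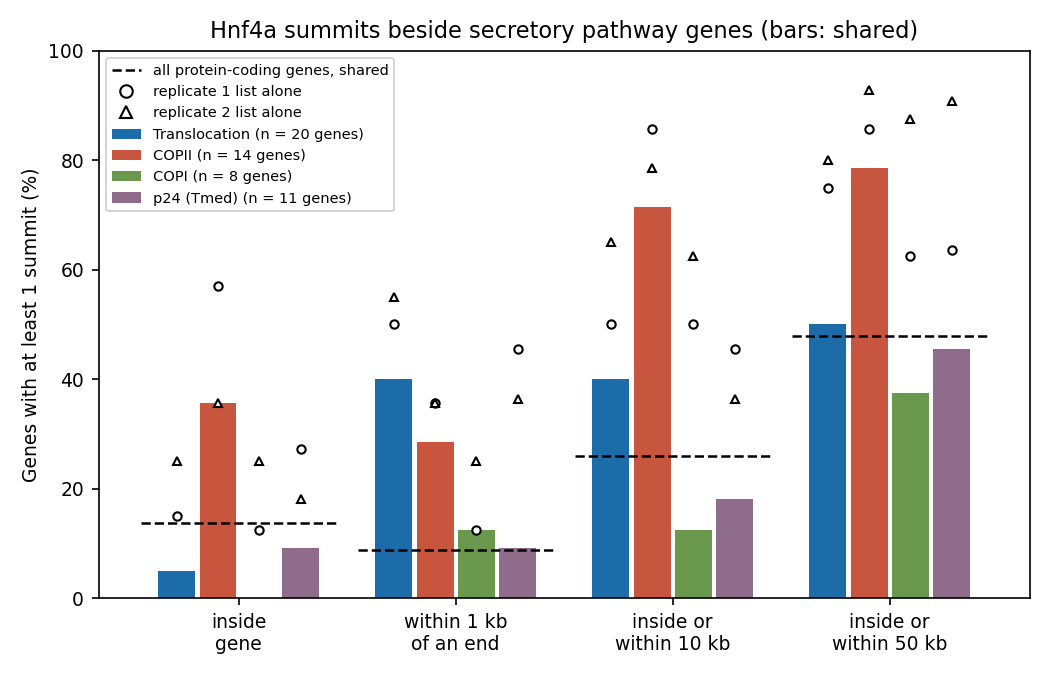
Percentage of genes with at least 1 Hnf4a summit in each window (x axis), by class. Bars are shared summits, circles and triangles are replicates 1 and 2 alone, and dashed lines are the shares of all protein-coding genes with a shared summit. The COPII bar is highest inside genes (35.7%) and within 10 kb (71.4%), the translocation bar is highest within 1 kb of an end (40%), and COPI has no shared summit inside a gene.

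The classes differed in how many members had a shared summit within 10 kb. These were 10 of 14 COPII genes (71.4%) and 8 of 20 translocation genes (40%). The p24 genes gave 2 of 11 (18.2%) and the COPI genes 1 of 8 (12.5%), while 26% of all genes had one. The classes also differed in where. All 8 of these translocation genes had a summit within 1 kb of a gene end, whereas 4 of the 10 COPII genes did, 4 had one deeper inside the gene and none within 1 kb of an end, and 2 had shared summits only outside the gene. Of the 4, Sec24a also had a shared summit outside the gene. The shares of the 10 COPII genes were thus 40%, 40% and 20%, beside 33.5%, 39.3% and 27.2% for all 5696 such genes. COPII genes were longer, with a median of 38.4 kb against 19.9 kb for translocation genes, 26.4 kb for COPI genes and 17.2 kb for all genes. Per 100 kb of gene, COPII genes held 1.11 shared summits, translocation genes 0.226, COPI genes 0 and all genes 0.416. The COPII value rests on 7 summits, of which 3 lay in Sec16a alone. Those at −242 and −741 were upstream of its listed start site but within the gene bounds. The part of gene length in these counts was not tested, and neither were the differences between classes. With single replicates, COPI genes had a summit within 10 kb in 4 and 5 of 8 cases (50% and 62.5%). Translocation genes had one in 10 and 13 of 20 (50% and 65%), and all genes in 46.4% and 49.2%.

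Among translocation genes, all 4 genes of the TRAP complex had a shared summit within 1 kb of a gene end, beside 8.73% of all genes. Ssr3, which encodes the gamma subunit, scored 16.1 in replicate 1 and 12.9 in replicate 2. Ssr4, the delta subunit on chromosome X, scored 13.1 and 13.0 at −311. Ssr2, the beta subunit, scored 12.7 and 8.52 at 110 bp outside a gene end, and had 2 further shared summits within 10 kb, beyond its other end, at 5376 bp (7.98 and 9.15) and 5934 bp (3.78 and 2.96). Ssr1, the alpha subunit, differed in place: its summit lay inside the gene, 607 bases after the start site in replicate 1 and 605 in replicate 2, with scores of 18.6 and 8.08. At all 4 genes the summit within 1 kb of an end was above the list median in both replicates. The medians of all shared summits were higher, 9.93 in replicate 1 and 9.61 in replicate 2. Ssr1 and Ssr2 fell below that median in replicate 2.

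The channel and its partners had shared summits within 10 kb in 3 of 6 cases (50%, beside 26% of all genes). Sec61b, the beta subunit of the channel, scored 5.77 and 8.18, so only its replicate 2 summit was above the list median. Sec63, which recruits the lumenal chaperone BiP to the channel, scored 6.37 and 4.94, below both list medians. Sec62, the partner of Sec63, had a shared summit at −4160 (7.91 and 12.8) and another 244 bp past its far end (7.50 and 7.24). Of the pore-forming subunits, Sec61a1 had only replicate 2 summits nearby, the better scoring 3.23 inside the gene, and Sec61a2 had none within 10 kb. Sec61g, the gamma subunit, had a summit in replicate 1 alone, 115 bases after its start site (6.82).

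None of the 8 genes of the signal recognition particle had a shared summit within 10 kb, where 26% of all genes had one. Srp72 had a replicate 1 summit 555 bases inside the gene (4.95) and a replicate 2 summit 6180 bp outside it (6.76). Srp68 had a replicate 2 summit inside the gene (9.92) and Srp54a a replicate 2 summit 399 bp outside a gene end (3.11). Srp9 and Srp14, which pause translation, and Srp54b had no summit of either list within 50 kb, and Srp19 had only replicate 2 summits 1 to 50 kb away. Srp54a, Srp54b and Srp54c are neighbouring copies of the gene for the subunit that binds the signal sequence, so how well reads can be placed among them was not tested. Further out, Srp68 had a shared summit 45906 bp away (9.08 and 13.5) and Srp54c one 23406 bp away (6.60 and 5.63). For the signal peptidase, Sec11c had a shared summit at 318 bp outside the gene (7.25 and 14.1), while Sec11a had a summit within 10 kb in replicate 2 alone, at −342 (9.40).

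**Figure D2:**
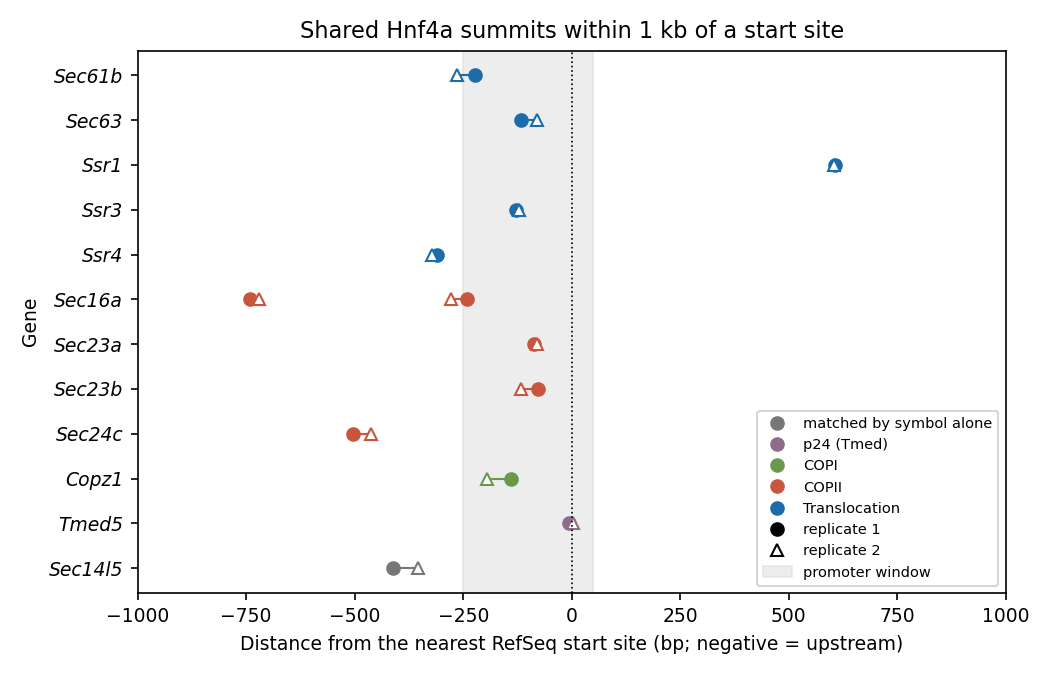
Position of each shared summit within 1 kb of a RefSeq start site, in bp with upstream negative (x axis), for the 12 genes concerned (y axis). Filled circles are replicate 1, open triangles are replicate 2 and the grey band is the promoter window. In replicate 1 all lie between −503 and −6, except the second Sec16a summit at −741 and the Ssr1 summit inside the gene at 607.

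Counted from the start sites of the promoter table, which gives the strand, 12 of 53 members had a shared summit within 1 kb of a start site (22.6%), beside 8.84% of 17491 protein-coding genes with an entry. At the transcript end the count was 3 of 53 (5.66%), beside 1.01% of all. Those 3 were Sec62, Sec22a and Sec14l2. By class, start sites gave 5 of 15 translocation genes, 4 of 14 COPII genes, 1 of 8 COPI genes and 1 of 8 p24 genes. Some promoters serve a neighbour too. For 3 of the 17 genes with a shared summit near an end, the same summit lay within 1 kb of another gene's end: Alg2 at 72 bp for Sec61b, Idh3g at 185 bp for Ssr4, and Ccdc18 at 35 bp for Tmed5. Of the 1698 shared summits within 1 kb of any gene end, 15.1% lay within 1 kb of the ends of 2 or more genes. To which gene such a summit belongs cannot be told from its position.

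In the COPII class, the scaffold gene Sec16a had the highest score of all members for a shared summit inside the gene or within 10 kb. Sec16a organises ER exit sites, and its best summit, at position 26445458 of chromosome 2, scored 40.4 in replicate 1 (rank 135 of 21283) and 28.5 in replicate 2 (rank 381 of 24097). It lay at −242 from the listed start site, within the RefSeq gene bounds, which reach further upstream. A second shared summit at −741 scored 8.54 and 9.97, and another, 21930 bases into the gene, scored 12.5 and 17.6. No other member had 3 shared summits inside the gene. Its relative Sec16b had a summit inside the gene (6.83 and 12.8), 35158 bases after the nearest listed start site.

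The inner coat gave 6 of 7 genes within 10 kb (85.7%, beside 26% of all genes), counting Sec23ip, a partner of Sec23. Sec23a and Sec23b encode alternative forms of the GTPase-activating subunit, and both had a shared summit in the printed windows. Sec23a scored 23.2 and 13.6, and Sec23b 14.5 and 6.84. The Sec24 genes encode the subunit that picks cargo. Sec24c had a summit at −503 that scored alike in both replicates (20.0 and 19.3). Sec24a had one 17405 bases into the gene (20.9 and 16.1) and another 3151 bp beyond its far end (5.47 and 13.6), 8 bp from the end of the neighbour 0610009B22Rik. Sec24d had one 67899 bases into the gene (9.26 and 12.9). Sec24b had a summit in each list near its start site, at −182 in replicate 1 (7.22) and −842 in replicate 2 (5.19). They stood 660 bp apart and were not shared. Sec23ip had its shared summit 5423 bp past the gene (9.63 and 10.7).

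Both Sar1 genes had a shared summit, but neither near the start site. Sar1a had one 2156 bp past the gene (7.68 and 4.82), which lay 47 bp from an end of the neighbour Tysnd1. Sar1b, whose human counterpart is mutated in chylomicron retention disease, had one 4801 bases into the gene (6.16 and 5.89). The lower score of each pair (4.82 and 5.89) was below those of the best-ranked summits of the other 8 COPII genes. The outer coat gave 0 of 3 genes within 10 kb, where 26% of all genes had a shared summit. Sec13 had a replicate 1 summit inside the gene (4.20), and Sec31a had replicate 2 summits only, over 10 kb away. Sec31b had no summit of either list within 50 kb. The best-scored shared summit in the 50 kb window of any member did lie 37548 bp from Sec13 (59.3 and 45.3, ranks 45 and 95).

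**Figure D3:**
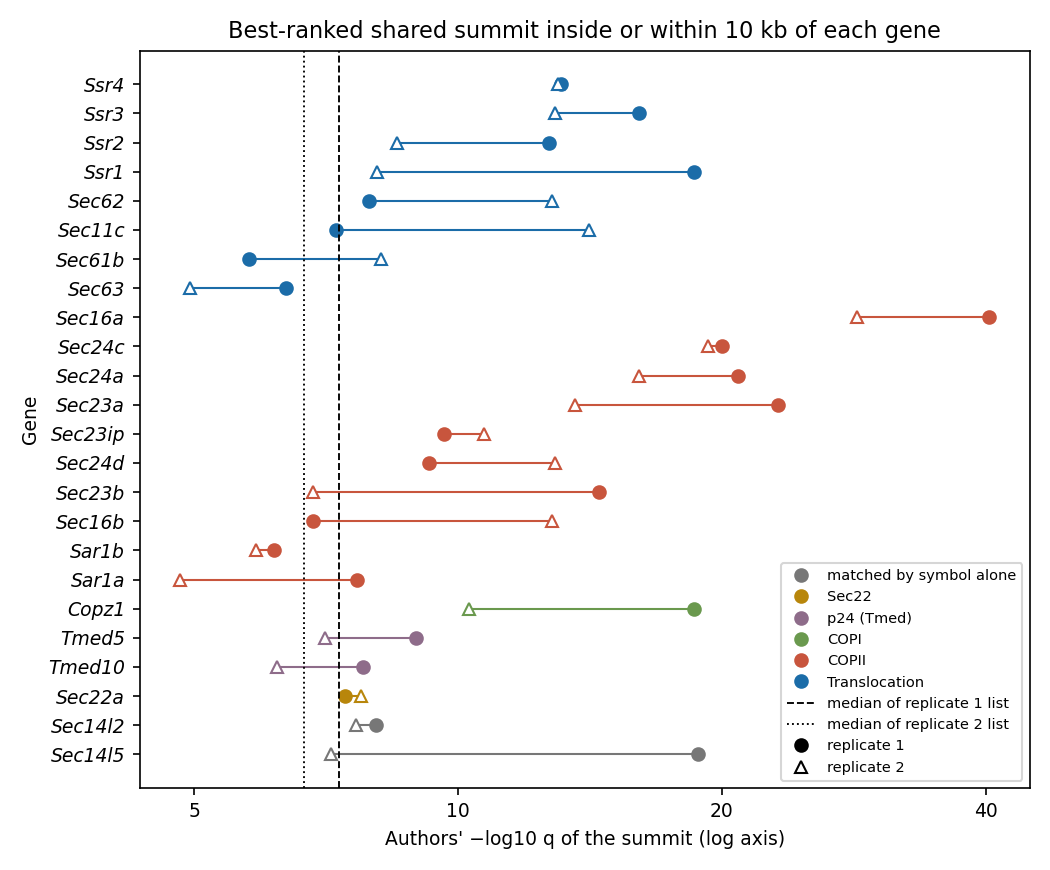
Authors' −log10 q (x axis, log scale) of the best-ranked shared summit inside or within 10 kb of each of the 24 genes (y axis), in replicate 1 (filled circles) and replicate 2 (open triangles), coloured by class. The dashed and dotted lines are the medians of the lists (7.32 and 6.67). Sec16a lies furthest right at 40.4 and 28.5, and the lowest value is that of Sar1a in replicate 2 (4.82).

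Of the COPI genes, Copz1, which encodes a zeta subunit of the coat, alone had a shared summit within 10 kb, scoring 18.6 in replicate 1 and 10.3 in replicate 2. A second one, 32646 bp from the gene, scored 36.5 and 24.1. Copb1, a beta subunit gene, had a summit in each list inside the gene (5.19 and 5.96) that stood 168 bp apart. Copg2 (7.62, inside the gene) and Copz2 (6.22, 79 bp outside a gene end) had summits within 10 kb in replicate 2 alone. Copg1 had a shared summit only at 49050 bp (8.99 and 7.31). Copa, Copb2 and Cope had no shared summit within 50 kb, and none of either list inside or within 1 kb.

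In the p24 family, Tmed5 scored 8.95 and 7.05 at its start site, 35 bp from an end of Ccdc18. Tmed10, the delta subfamily member that binds cargo with Tmed2, had a shared summit 12015 bases into the gene (7.79 and 6.22). Near its start site the replicates differed, with summits at 664 (7.42) in replicate 1 and −113 (10.7) in replicate 2. Tmed1 had a similar unshared pair, at −343 (6.72) and −142 (6.94), 201 bp apart. Within 10 kb, Tmed6 (5.56) and Tmed7 (9.11) had summits in replicate 1 alone and Tmed2 (7.59) in replicate 2 alone. Tmed4, Tmed6 and Tmed11 had shared summits only further out, at 16993, 30310 and 49429 bp. Tmed8 and Tmed9 had only unshared summits 1 to 50 kb away, and Tmed3 had none.

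The Sec22 genes encode SNARE proteins or their relatives that act in fusion with ER and Golgi membranes. Sec22a had 2 shared summits past its transcript end, at 378 bp (10.7 and 6.74) and 2095 bp (7.44 and 7.75). Summits of both lists also lay before its start site, at −198 in replicate 1 (5.08) and −91 in replicate 2 (8.72). At 107 bp apart this pair was just outside the 100 bp allowed, whereas the pair at Sec14l2 was just inside at 92 bp. Sec22b had a replicate 2 summit alone within 10 kb, at −153 (7.68), and Sec22c a shared summit 13383 bp away (14.5 and 6.58). Nearer to Sec22c, summits at 4625 bp in replicate 1 (8.06) and 4808 bp in replicate 2 (18.5) stood 183 bp apart and were not shared. Of the genes matched by symbol alone, Sec14l5 (18.8 and 7.16, at −411) and Sec14l2 (8.06 and 7.66, 161 bp past its transcript end) had shared summits. Sec14l1 had unshared summits in replicate 1 (9.26) and replicate 2 (6.43) and a shared one 23434 bp away (17.4 and 16.8). Sec1 had its best-ranked shared summit at 33229 bp (11.6 and 10.1). Sec14l3 and Sec14l4 reached the one at Sec14l2, and Sec14l4 had another, 37513 bp away (5.66 and 8.04).

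Over the 31 shared summits inside or within 10 kb of members, scores ran from 3.78 to 40.4 in replicate 1 with a median of 8.95, and from 2.96 to 28.5 in replicate 2 with a median of 9.15. The 6222 shared summits in the same windows of all genes had medians of 9.94 and 9.51. Replicate 1 scored higher at 20 of the 31 and replicate 2 at 11. This was not counted for the shared summits of all genes, whose median was also higher in replicate 1. Summits of the pairs stood 0 to 92 bp apart, with a median of 36 bp beside 32 bp for all genes. In all, 6 of the 24 genes had a shared summit within 10 kb in the top 20% of both lists (25%), beside 30.9% of the 5696 genes with one in that window.

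The 58 promoter windows of the 53 genes had a median of 19.5 CpG, beside 13 for 21262 windows of all protein-coding genes and 21 for the 1068 windows of all genes that held a shared summit. A shared summit lay inside 8 of the 58 windows (13.8%), beside 5.02% of all. The letters CAAAGTC and AGGTCA, parts of HNF4 sites, were searched on both strands. They were in 1 (Sec16b) and 8 of the 58 member windows (1.72% and 13.8%), beside 4.14% and 14.7% of all windows and 3.28% and 11.6% of all windows with a shared summit. Neither was in the 8 member windows with a shared summit. TGACGTG, found in sites of the ER stress response, was in 5 member windows (8.62%, beside 2.17% of all). They were those of Sec16b, Sec24d, Sec23a, Copb1 and Copb2, which are 3 COPII and 2 COPI genes. CCACG, which overlaps TGACGTG where a G follows it, was in 56.9% beside 37.4%, and CCAAT in 44.8% beside 38.2%. Of all windows with a shared summit, 3.75% held TGACGTG, 54.9% CCACG and 55.1% CCAAT. These are matches of letters in 300 bases, and nothing about binding follows from them.

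A list of 66 further genes of the early secretory pathway, outside the symbol rule, was counted in the same way. Shared summits lay inside or within 10 kb of 29 of them (43.9%, beside 26% of all genes) and within 1 kb of an end of 18 (27.3%, beside 8.73%). Translocation and folding gave 10 of 23, the COPII side 6 of 15, the COPI side 8 of 17 and regulators 5 of 11. The COPI side of this list thus gave 47.1%, beside 1 of 8 (12.5%) for the COPI subunits of the symbol rule. On that side of the list only Arcn1 encodes a coat subunit, so the sets are unlike. The difference was not tested. Arcn1, the coat subunit that the symbol rule misses, had a shared summit 7955 bp away (11.1 and 14.9).

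Named by rank, up to 3 for each role, the best were as follows. Stt3a, a catalytic subunit of the N-glycosylation enzyme, scored 18.8 in replicate 1 and 14.3 in replicate 2 at −269. Spcs2, a signal peptidase subunit, scored 14.5 and 13.6 at 91 bp outside a gene end, and Hspa5, which encodes BiP, had shared summits at −9136 (10.9 and 14.7) and −287 (9.39 and 9.53). On the COPII side, Mia3, the receptor TANGO1 that loads collagen, scored 23.9 and 27.6 at −291. Mia2, its partner, scored 28.7 and 20.5 at 8870 bp, and the tethering subunit gene Trappc1 scored 17.2 and 11.2 at 9096 bp. On the COPI side, Kdelr2, a receptor that returns ER proteins, scored 18.8 and 30.4 at 199 bp from a gene end. Gbf1, which activates Arf1, scored 23.3 and 16.9 at −169, and the SNARE gene Stx18 had a summit inside the gene (12.3 and 13.2). Of the regulators, the ER stress kinase gene Eif2ak3 had 3 shared summits (15.4 and 15.0 for the best-ranked), Creb3l2, a factor that raises COPII genes, had a summit 60 bp outside a gene end (12.2 and 15.7) and 2 more inside the gene, and the stress sensor gene Atf6 had 6, all inside the gene (11.2 and 9.53 for the best-ranked).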

How the data were processed

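ChIL-seq for Hnf4a was analysed in 2 replicates of 1 group. The submitters' processing notes name build mm10, MACS2 2.2.9.1, HISAT2 2.0.5 and fastp 0.23.4. The values are the deposited −log10 q-values of 1-bp summits, called per library, with a q threshold of 0.01 in the summit names. Use of a control library, duplicate removal and depth are not given in the sources used here.

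Summits were counted against RefSeq GRCm38.p6 gene bounds on chromosomes 1 to 19, X and Y. Start sites and sequences came from the RefSeq promoter table, in which all 816 overlapping windows of opposite strands were reverse complements. Members and lists were chosen with earlier results of these data known. No test was planned or run. Named genes were all members with a shared summit inside or within 10 kb, single-list summits inside or within 1 kb, the 4 best-ranked at 10 to 50 kb, and up to 3 per role of the further list; others were named to account for every member. Counting was tested on simulated data. Python 3.11.15, numpy 2.4.6, pandas 2.3.3 and matplotlib 3.10.9 were used.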

Additional observations from a re-analysis of the deposited data

How the results depend on the processing

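Each count was repeated with 1 choice changed; 66 of 92 values stayed within 1.5 times the count reported. With the top 10000 summits of each list, 13 members had a shared summit within 10 kb (21%, beside 15.9% of all genes). There were 4 with one inside (6.45%, beside 8.35%) and 9 within 1 kb of an end (14.5%, beside 4.98%). Within 50 kb there were 21 (33.9%), close to the 32% of all genes. Within 10 kb, translocation gave 5 genes, COPII 6, p24 0 and the further list 18. Shorter lists hold fewer summits. COPI moved from 1 gene to 0 of 8 when summits had to lie within 50 bp, where Copz1 was lost. It moved to 2 of 8 (25%) at 200 bp and at 500 bp, where Copb1 was gained. Of all genes, 19.8% had a shared summit within 10 kb at 50 bp, 29.9% at 200 bp and 31.3% at 500 bp. At 50 bp, 18 members had one (29%), among them 7 of 14 COPII genes (50%). Leaving out the deep interior of genes, a choice made after seeing the data, gave 1 p24 gene and 20.6% of all genes. Counting start sites in place of gene ends was also chosen then. Without 1 replicate, the list of the other alone was counted, so the need for sharing falls away. This gave 36 to 39 members within 10 kb, 15 to 16 inside, 25 to 26 within 1 kb and 48 to 55 within 50 kb. Translocation gave 10 to 13 genes, COPII 11 to 12, COPI 4 to 5, p24 4 to 5, the further list 46 in both cases and all genes 46.4% to 49.2%. The count of 1 COPI gene holds only for summits shared within 100 bp. No paired analysis was possible because there is 1 group. Read depth is unknown, so whether a summit found in 1 list alone was missed for depth in the other was not tested.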
